A study of Mus musculus with 44 samples.

Results

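Public α-chain CDR3s were taken here as CDR3 amino acid sequences that ended in none of 12 common β-chain J endings and were found under 10 or more of the 44 tumour IDs. They were thus chosen by the number of tumours with a read count above 0. There were 439 of them among 49095 distinct CDR3s that passed the ending rule (0.894%) and 121860 distinct CDR3s in all. The T cell receptor (TCR) repertoires came from B16 melanomas grown under the skin of C57BL/6J mice and collected on day 12. All tumours were of the same wild-type line. The groups were 15 tumours treated with AC484, an inhibitor of the phosphatases PTPN2 and PTPN1, 15 treated with an antibody against PD-1 and 14 labelled vehicle, which the methods describe as given no treatment. Each tumour gave 1 library of α and β transcripts from bulk tissue, so the T cell subset behind a CDR3 was not known.

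The TCR α chain is built in the thymus by joining a V gene segment to a J segment, with no D segment in between. Bases are trimmed from both ends and untemplated bases may be added, and the codons across the joint encode the CDR3, the loop at the centre of the receptor that reads peptide or lipid antigen. A CDR3 found in many individuals is called public, and sequences that need few added bases, or that many nucleotide joints encode, are known to be made again and again. Some public α chains instead mark a lineage: invariant natural killer T (iNKT) cells, which read lipids on CD1d, carry Trav11 joined to Traj18, and mucosal-associated invariant T (MAIT) cells, which read vitamin B metabolites on MR1, carry Trav1 joined to Traj33.

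The ending of each CDR3 was set against the germline J genes of GRCm38, since the table gives no chain, V gene or nucleotide sequence. A Traj ending matched 418 of the 439 public CDR3s, each to 1 gene. The other 21 matched a Trbj ending and all began with CAS, the usual start of a mouse β chain, so the data went against the α label for them. Among all 49095 CDR3s that passed the rule, 71.8% matched a Traj gene, 21.3% a Trbj gene and 6.92% neither. For the single-tumour CDR3s these shares were 67.5%, 23.9% and 8.58%. Results are therefore given for the whole rule and, where it matters, for Traj matches alone.

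The 5 germline Traj segments to which the results return are shown with their CDR3-coding bases in capitals, so that a reader can see how much of a public CDR3 is already written in the genome. They lie on chromosome 14 of GRCm38, on the plus strand, and a first 1 or 2 capital bases complete a codon begun by the V side.
Traj22 at chr14:54197248-54197307, CDR3 ending SSGSWQLIF: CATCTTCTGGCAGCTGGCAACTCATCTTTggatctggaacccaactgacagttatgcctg
Traj7 at chr14:54211470-54211528, CDR3 ending DYSNNRLTL: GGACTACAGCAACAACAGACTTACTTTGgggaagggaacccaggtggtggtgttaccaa
Traj23 at chr14:54196081-54196140, CDR3 ending NYNQGKLIF: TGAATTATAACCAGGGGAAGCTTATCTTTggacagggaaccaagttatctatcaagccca
Traj30 at chr14:54189866-54189924, CDR3 ending DTNAYKVIF: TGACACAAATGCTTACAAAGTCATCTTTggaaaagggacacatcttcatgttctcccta
Traj18 at chr14:54200777-54200842, CDR3 ending DRGSALGRLHF: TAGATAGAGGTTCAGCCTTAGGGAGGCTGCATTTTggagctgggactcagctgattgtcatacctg

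The number of tumours per CDR3 fell away steeply, with no gap at the threshold of the rule. Of the CDR3s taken as α, 38999 (79.4%) were found in 1 tumour and 9657 in 2 to 9. Just inside the rule, 102 CDR3s were found in 10 tumours and averaged 13.2 residues, and just outside it 139 were found in 9 and averaged 13.3 residues. The members were held by a median of 12 tumours, 153 by 15 or more, 45 by 20 or more, 10 by 30 or more, 4 by 40 or more and 1 by all 44. Among β CDR3s, the endings the rule left out, 274 of 72765 (0.377%) reached 10 tumours. These numbers follow from the rule and are a description.

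**Figure D1:**
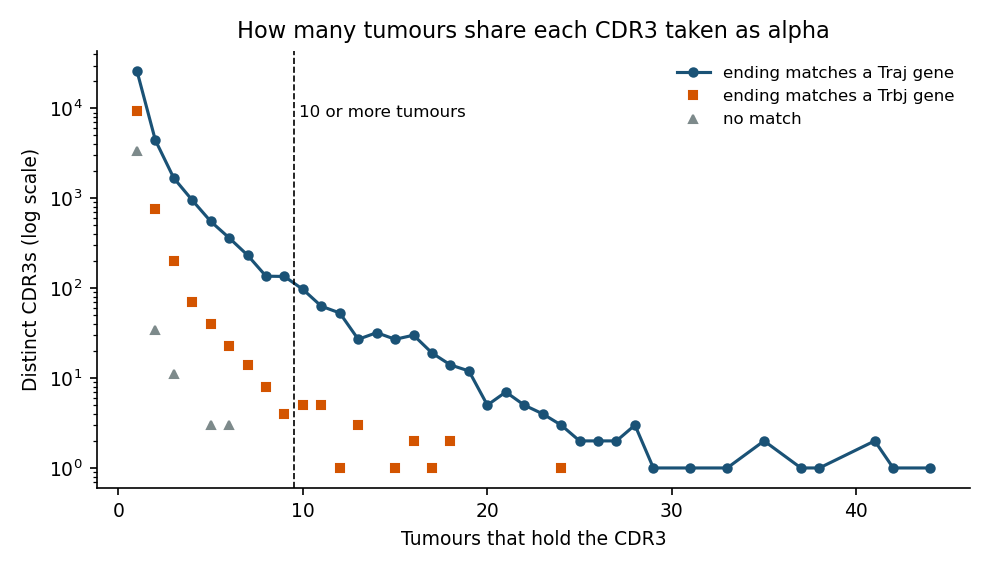
Distinct CDR3s taken as α (vertical axis, log scale) by the number of tumours that hold them (horizontal axis), separately for endings that match a Traj gene, a Trbj gene or neither. The dashed line marks the rule; to its right lie 418 CDR3s with a Traj match, 21 with a Trbj match and none without a match, and 1 CDR3 reaches 44 tumours.

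The CDR3 found in every tumour was the invariant iNKT chain, with the CVVG start of Trav11, the complete Traj18 ending, 15 residues and none outside these germline ends. It took 11246 reads in all. In AC484-treated tumours it had 29 to 1120 reads (median 479), or 0.107% to 1.10% of a tumour's α reads (median 0.487%). In anti-PD-1-treated tumours it had 48 to 742 reads (median 180), or 0.144% to 1.69% (median 0.349%), and in vehicle tumours 2 to 201 reads (median 24), or 0.0640% to 1.11% (median 0.238%). The 3 groups overlapped over most of their range. Its highest tumour held 9.96% of its reads, so no single library carried it. In edgeR's quasi-likelihood test on read counts its log2 fold change was 2.33 for AC484 over vehicle (adjusted p = 0.30) and 1.01 for AC484 over anti-PD-1 (adjusted p = 0.758). That test rescales library depth by trimmed means (TMM), so these fold changes are not ratios of the shares above.

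Another 11 members ended in Traj18, and of the 12 in all, 6 had 15 residues and 3 began with CVV. The closest to the invariant chain differed from it by 1 residue on the V side, in a CVVV start, found in 20 tumours with 159 reads, and a CVVA start, found in 16 with 202 reads. The residues matched to a J ending are in capitals in CDR3s written out from here on. The MAIT-type chain cavrDSNYQLIW, with the Trav1 start, the Traj33 ending and 12 residues, was found in 10 of 15 AC484-treated, 3 of 15 anti-PD-1-treated and 1 of 14 vehicle tumours, with 119, 10 and 6 reads. It stayed at or below 62 reads in any tumour, and its highest shares of α reads were 0.0540%, 0.0244% and 0.0245% in the same group order. Drawn once to equal depth, it was found in 2 AC484-treated, 1 anti-PD-1-treated and 0 vehicle tumours. Without V genes both types rest on the CDR3 alone.

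The CDR3s found in the next most tumours were variants of a few joints. Their sequences are set out by J gene because they place a few residues, in lower case, ahead of a complete germline ending, in capitals.
Traj30, 42 tumours: caasgDTNAYKVIF
Traj30, 41 tumours: calghDTNAYKVIF
Traj30, 33 tumours: calggDTNAYKVIF
Traj30, 31 tumours: calgdDTNAYKVIF
Traj7, 41 tumours: caakDYSNNRLTL
Traj7, 37 tumours: caasDYSNNRLTL
Traj22, 38 tumours: caaaSSGSWQLIF
Traj22, 35 tumours: caasaSSGSWQLIF
The remaining one, caargYNQGKLIF (35 tumours), used Traj23 with its first residue replaced by the joint.

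Reads set these CDR3s apart from one another. caakDYSNNRLTL took 142199 reads, the second most of any member: 154 to 93804 in AC484-treated tumours (median 833), 0 to 7874 in anti-PD-1-treated tumours (median 233) and 0 to 3349 in vehicle tumours (median 30). Libraries differed in depth, and its median shares of α reads were 1.28%, 0.505% and 0.665% in the same group order. caakDYSNNRLTL made up 26.8% of the α reads of AC484 replicate 4, 9.34% of those of anti-PD-1 replicate 2 and 24.6% of those of vehicle replicate 12. caasDYSNNRLTL took 87468 reads, with medians of 702 in AC484-treated, 516 in anti-PD-1-treated and 1.5 in vehicle tumours and highest shares of 14.9%, 21.8% and 16.8%. Its median shares were 0.578%, 1.30% and 0.0389%. Both thus took a large share of reads in a few tumours of every group and few reads in others. caasgDTNAYKVIF reached 15042 reads in anti-PD-1 replicate 11 (10.8%), against medians of 294, 154 and 10 reads in AC484-treated, anti-PD-1-treated and vehicle tumours. Its median shares of α reads were 0.310%, 0.417% and 0.138%. By contrast caargYNQGKLIF never passed 83 reads, and caasaSSGSWQLIF never passed 162.

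Most public CDR3s were rare where they were found. The members made 6233 entries, of which 63.3% had under 10 reads and 15.7% a single read. The median reads of a member where it was found had a median of 5 over the members. Among the CDR3s taken as α that were not members, 29.9% of entries were single reads. Summed over the tumours a member had 25 to 144779 reads (median 176). Together they took 1025250 of 2674850 α reads (38.3%), made up of 28.5% in the 418 with a Traj match and 9.88% in the 21 with a Trbj match. The Trbj group was the more abundant per CDR3, with a median of 7828 summed reads against 169 for those with a Traj match.

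Some members were shared mainly by counts far below their highest. For 27 members, 21 with a Traj and 6 with a Trbj match, 90% or more of the reads lay in 1 tumour. The member with the most reads, a Traj17 CDR3 that began with CALSE, had 144091 of its 144779 reads in AC484 replicate 4, where it was 41.2% of α reads. It was also found in 11 other AC484-treated, 6 anti-PD-1-treated and 1 vehicle tumour. There it had at most 284 reads in an AC484-treated tumour (replicate 5), 11 in an anti-PD-1-treated tumour and 3 in the vehicle tumour. AC484 replicates 9 and 11, of another primer set than replicate 4, held 95 and 61 reads. If counts under 1% of a CDR3's highest count were left out, 333 of the 439 members still reached 10 tumours, 325 of 418 with a Traj match and 8 of 21 with a Trbj match. The 27 concentrated members had 328 other entries, of which 169 (51.5%) lay in the same index primer set as the top tumour, which holds on average 23.9% of the other tumours. For the remaining 412 members the same shares were 28.9% and 23.8%. An index primer set is the set of reverse primers that tagged a library. The share of such traces due to reads carried between libraries was not tested.

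**Figure D2:**
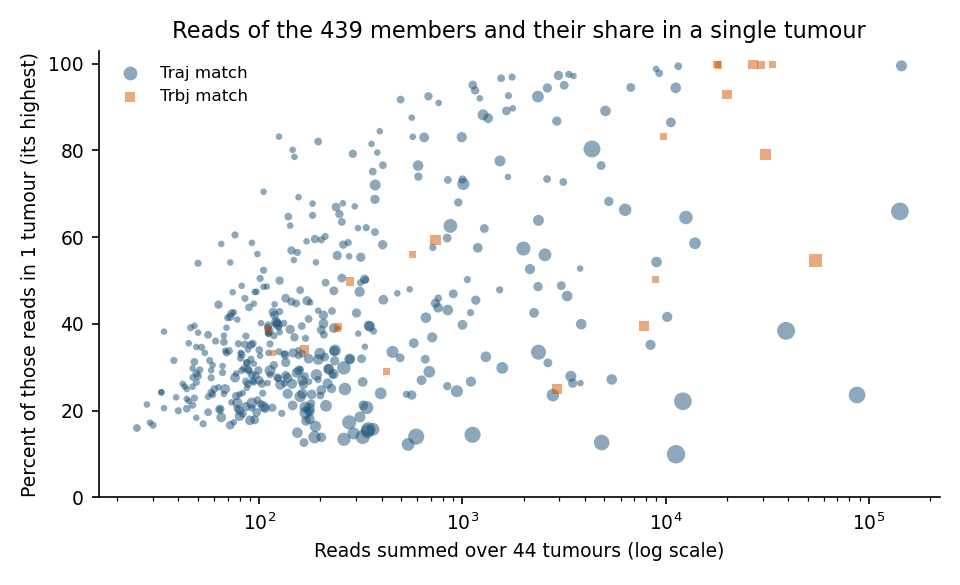
Each point is 1 of the 439 members: reads summed over 44 tumours (horizontal axis, log scale) against the percent of them in its highest tumour (vertical axis), with larger points for more tumours and squares for Trbj matches. Members over 90% include the 144779-read CDR3 at the far right, while the CDR3 found in all 44 tumours lies at the bottom with 11246 reads.

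The 21 members with a Trbj match held a compact family. Of them 18 ended in EQYF, a Trbj2-7 match 1 residue short of the YEQYF ending that the rule excluded. They are shown because 4 differ by 1 residue, given in capitals.
found in 24 tumours: casslelggPeqyf
found in 18 tumours: casslelggReqyf
found in 12 tumours: casslelggEeqyf
found in 11 tumours: casslelggLeqyf
Together these 4 took 112782 reads, 42.7% of the reads of all 21. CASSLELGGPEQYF had 29851 of 54619 reads in anti-PD-1 replicate 15, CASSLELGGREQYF had 24547 of 31021 in AC484 replicate 15, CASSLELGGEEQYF had 18151 of 18192 in anti-PD-1 replicate 4 and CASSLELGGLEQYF had 4493 of 8950 in AC484 replicate 8. The family was thus led by a different tumour for each residue. At least 1 of the 4 was found in 13 of 15 AC484-treated, 13 of 15 anti-PD-1-treated and 10 of 14 vehicle tumours, with 42043, 69476 and 1263 reads.

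Most public CDR3s lay 1 residue from another public CDR3. An edit of 1 residue linked 372 of the 439 (84.7%) to another member, in 39 linked sets. The same share was not taken for other CDR3s, so it describes the members alone. The largest held 47 members, all with the Traj22 ending, followed by sets of 36 with Traj23, 34 with Traj7, 24 with Traj30 and 23 with Traj31. Each of these sets kept to a single J gene.

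Public CDR3s were shorter than single-tumour ones. Within a tumour the distinct members averaged 13.2 ± 0.0919 residues and the distinct CDR3s found in that tumour alone 13.6 ± 0.115 (SD, n = 44 tumours). The difference of -0.354 residues was seen in 43 of 44 tumours (two-sided sign-flip permutation test over tumours, adjusted p = 1e-05, the smallest that 100000 resamples can give). For Traj matches alone the means were 13.2 and 13.8 residues and the difference -0.593. Of the members with a Traj match 67.9% had 13 or 14 residues and 6.94% had 15 or more, against 49.8% and 33.6% of single-tumour CDR3s. Tumours share the public CDR3s, so the 44 differences are not fully independent and this p and those below are too small to that extent.

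The larger difference was in how little the joint added. Residues were counted as non-germline if they lay between the longest match to a Trav start and the longest match to a J ending. Among CDR3s with a Traj match the members of a tumour averaged 0.741 ± 0.0653 such residues and its single-tumour CDR3s 2.00 ± 0.101 (SD, n = 44), a difference of -1.25 in 44 of 44 tumours (adjusted p = 1e-05 by the same test). Over the whole rule, where Trbj matches leave the D segment uncounted as germline, the means were 1.03 and 3.28. Of the 418 members with a Traj match 161 had 0 non-germline residues (38.5%), 211 had 1, 41 had 2 and 5 had 3 or more. Among single-tumour CDR3s 3.72% had 0, and among those of 2 to 9 tumours 13.4%. The 161 fully germline members took 188342 reads. The complete germline J ending was kept by 301 of the 418 members (72.0%), by 42.5% of CDR3s of 2 to 9 tumours and by 31.5% of single-tumour CDR3s.

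**Figure D3:**
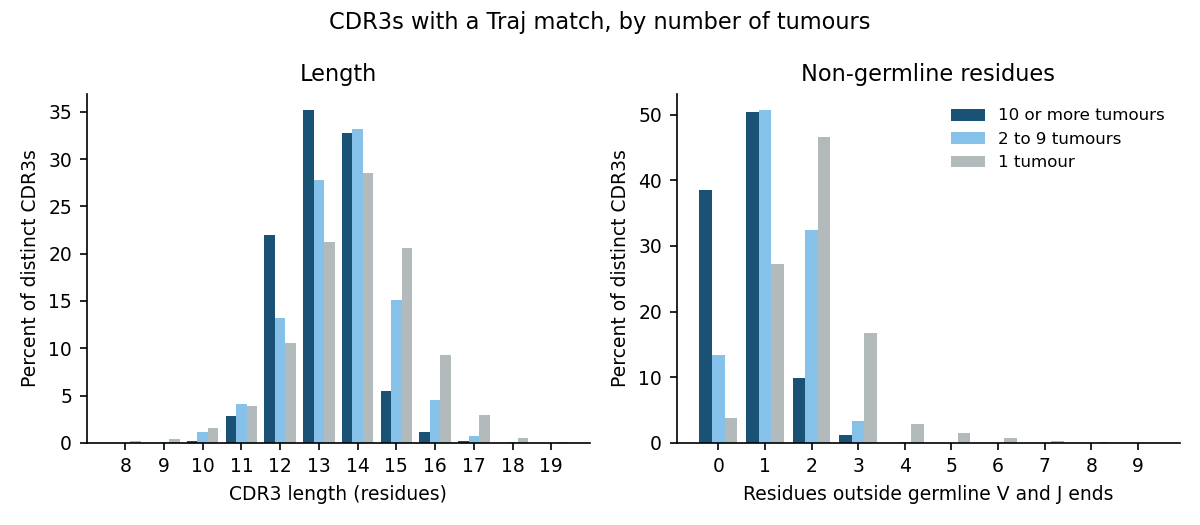
Percent of distinct CDR3s with a Traj match (vertical axes) by length in residues (left) and by number of non-germline residues (right), for CDR3s of 10 or more, 2 to 9 and 1 tumours. Members peak at 13 residues and at 0 or 1 non-germline residues, and single-tumour CDR3s at 14 and at 2.

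J gene use was narrow. Of 43 Traj genes with at least 100 distinct CDR3s, 15 (34.9%) took a higher share of a tumour's members than of its single-tumour CDR3s and 21 (48.8%) a lower one (sign-flip permutation test, adjusted p under 0.05). For Traj matches alone the numbers were 9 and 27, since single-tumour CDR3s with a Trbj match otherwise dilute every Traj share. The 5 with the largest difference upwards were Traj7, Traj22, Traj30, Traj23 and Traj12. Traj7 took 11.0 ± 3.98% of members and 2.01 ± 1.64% of single-tumour CDR3s (SD, n = 44), and Traj22 took 11.5 ± 2.66% and 2.56 ± 0.945%. Traj30 took 8.17 ± 2.72% and 2.08 ± 1.05%, Traj23 took 8.16 ± 2.07% and 2.50 ± 0.879%, and Traj12 took 4.17 ± 1.71% and 1.52 ± 0.704%. All 5 were higher in at least 42 of 44 tumours, with an adjusted p of 1.9e-05, and all 5 were also higher among Traj matches alone. Traj22 gave 49 members, Traj7 39, Traj23 37 and Traj30 24, so these 4 genes made up 149 of 418 (35.6%), against 13.4% of single-tumour CDR3s with 1 Traj gene.

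Traj7 depended more than Traj22, Traj23 and Traj30 on counts under 1% of a CDR3's highest count. Such counts need not be low in themselves. caakDYSNNRLTL, with a highest count of 93804 and a median of 485 reads where present, kept 14 of its 41 tumours. It had the highest public share of any Traj gene, 4.59% of its 850 distinct CDR3s, and its 39 members took 344077 reads, 33.6% of all member reads. Without counts under 1% of a CDR3's highest count, 14 Traj7 members still reached 10 tumours, as did 41 with Traj22, 27 with Traj23 and 20 with Traj30. The Traj7 share of members was then 3.78 ± 2.66%, against 2.06 ± 1.61% of single-tumour CDR3s (adjusted p = 0.00233).

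At the other end, Traj58 took 0 of the members and 1.16 ± 0.667% of single-tumour CDR3s, and Traj11 took 0 and 0.986 ± 0.714%. Traj45 took 0.218 ± 0.524% and 1.26 ± 0.656%, Traj24 took 0.161 ± 0.280% and 1.19 ± 0.892%, and Traj9 took 0.976 ± 0.754% and 1.93 ± 0.766%. The adjusted p was 1.9e-05 for each. Traj2, Traj5 and Traj35 also gave no member. The genes from Traj37 to Traj12, in the middle of the J cluster, gave 301 of the 418 members (72.0%) and 54.2% of single-tumour CDR3s, those upstream of them, which lie nearest the V genes, 68 members (16.3%) and 33.8%, and those downstream 49 (11.7%) and 12.0%. Germline endings of 8 or 9 residues, the shortest, were used by 335 members (80.1%) and by 55.6% of single-tumour CDR3s. These last 2 splits were chosen after the values were seen and were not tested.

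**Figure D4:**
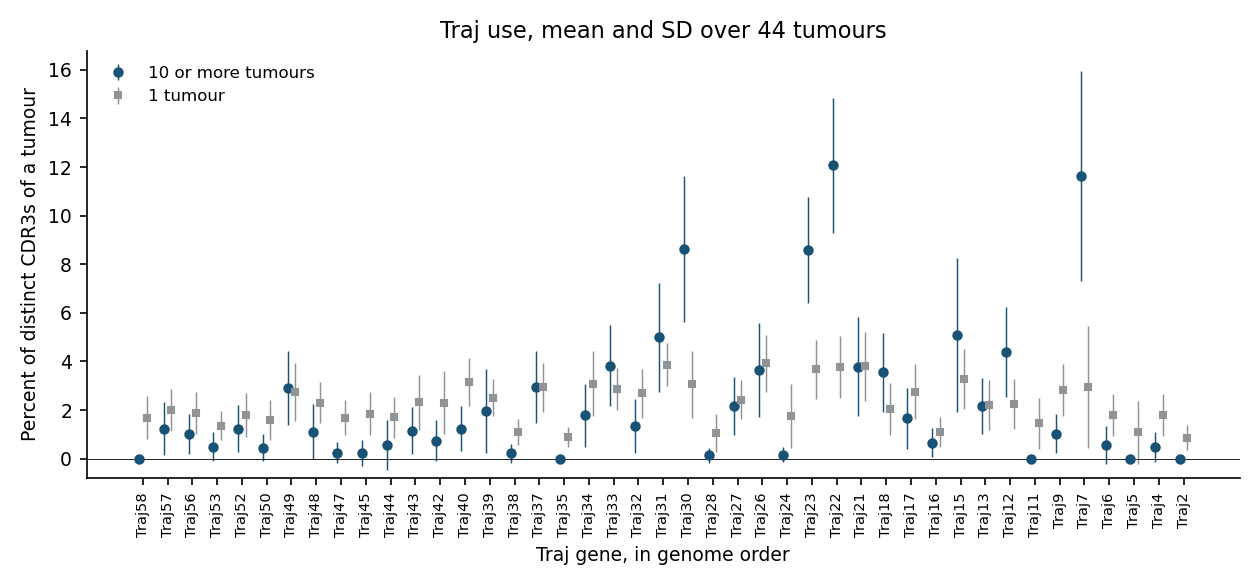
Percent of a tumour's distinct CDR3s that use each Traj gene (vertical axis; mean and SD over 44 tumours, Traj matches alone), with genes in genome order from Traj58 to Traj2. Members (circles) stand above single-tumour CDR3s (squares) at Traj30, Traj23, Traj22 and Traj7, and at 0 for Traj58, Traj35, Traj11, Traj5 and Traj2.

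The residues of the joint differed as well. Residues between the first 3 and the matched J ending were pooled per tumour, and of 20 residues tested 4 (20%) took a higher share in members and 13 (65%) a lower one. Serine took 29.4 ± 3.26% in members and 15.98 ± 1.25% in single-tumour CDR3s, higher in 44 of 44 tumours (SD, n = 44; permutation test, adjusted p = 1.5e-05). Methionine took 3.13 ± 1.32% and 1.64 ± 0.437%, and alanine 8.21 ± 1.83% and 6.76 ± 0.741%. Threonine took 1.25 ± 0.677% and 3.85 ± 0.458%, tryptophan 0.312 ± 0.378% and 2.48 ± 0.546% and glutamine 0.273 ± 0.450% and 2.30 ± 0.451%, each lower in 44 of 44 tumours. These values cover the whole rule, so the pool includes CDR3s with a Trbj match. For Traj matches alone all 6 kept their direction, and glycine was higher in members (16.6% and 14.3%, permutation test, adjusted p = 9.4e-05). Tryptophan (0.121% and 1.66%) and glutamine (0.175% and 1.34%) then differed less than glutamate, leucine and valine, which were also lower. Serine is the fourth residue of many germline Trav starts (CAAS, CALS), so this pool still holds V-encoded positions. In the 211 members with exactly 1 non-germline residue, that residue was alanine in 36, glycine in 36, arginine in 28, aspartate in 27, proline in 25 and methionine in 20. Methionine made up 9.48% of them, against 2.59% of the 7171 single-tumour CDR3s with 1 such residue, and alanine 17.1% against 8.95%. A residue whose codon is completed by the first 1 or 2 bases of a J segment counts here as non-germline. Part of its codon can thus be germline, as with the CA that opens Traj22 and the TG that opens Traj23. These shares are a description.

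Depth differed between groups, and so did the number of members found. AC484-treated tumours had 21107 to 349702 α reads (median 98393), those given anti-PD-1 28080 to 139381 (median 55397) and vehicle tumours 2710 to 31435 (median 10830). As deposited, AC484-treated tumours held 146 to 321 members (median 208), anti-PD-1-treated tumours 87 to 224 (median 151) and vehicle tumours 20 to 124 (median 54). Of the 439 members 438 were found among AC484-treated, 438 among anti-PD-1-treated and 338 among vehicle tumours, and a member was held by a median of 7, 5 and 1 tumours. The members took 604779 of the AC484 α reads (39.3%), 372246 of the anti-PD-1 reads (38.5%) and 48225 of the vehicle reads (28.7%). For the members with a Traj match these shares were 32.6%, 22.03% and 27.1%. The AC484 shares rested on AC484 replicate 4: without it they were 28.8% for all members and 20.2% for those with a Traj match, below the anti-PD-1 shares in both cases. Without vehicle replicate 1 the vehicle shares were 24.0% and 22.2%. With 1 tumour left out, the lowest anti-PD-1 shares were 35.2% and 19.5%. In bulk tissue, more T cells and more receptor RNA per T cell cannot be told apart. Since presence in these tumours chose the members, and 240 of the 439 were found in 1 vehicle tumour or none, the numbers of members per group that follow are a description with no test.

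Drawn to the same 2710 α reads, the number of members found still differed between the group means. The numbers were 65.8 ± 14.1 for AC484, 54.6 ± 10.2 for anti-PD-1 and 41.6 ± 15.7 for vehicle (SD, n = 15, 15 and 14), and 14 of 15 AC484-treated tumours lay above the vehicle median. The difference of means was 24.2 for AC484 minus vehicle, 11.2 for AC484 minus anti-PD-1 and 13.0 for anti-PD-1 minus vehicle. For Traj matches alone, drawn to 1466 reads, the numbers were 52.3 ± 10.9, 52.8 ± 7.90 and 36.6 ± 14.0, so that AC484 minus anti-PD-1 was -0.51. The draw evens the depth of the tumours counted but not that of the libraries in which the members were chosen. No index primer set held both AC484 and vehicle tumours, so set and treatment cannot be told apart for that comparison.

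The members found at equal depth moved with the number of distinct CDR3s found. Drawn to 2710 reads, AC484-treated tumours had 549 ± 153 distinct α CDR3s, anti-PD-1-treated tumours 453 ± 105 and vehicle tumours 315 ± 159 (SD, n = 15, 15 and 14). Members were 12.2 ± 1.27% of these for AC484, 12.2 ± 1.69% for anti-PD-1 and 14.7 ± 4.01% for vehicle. The difference was -2.44 percentage points for AC484 minus vehicle, -2.43 for anti-PD-1 minus vehicle and -0.0119 for AC484 minus anti-PD-1, and 14 of 15 AC484-treated tumours lay at or below the vehicle median. Within the primer set that held 7 AC484-treated and 5 anti-PD-1-treated tumours the shares were 12.2% and 14.1%.

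The share of α reads in members varied widely within every group. It ran from 12.8% to 74.9% among AC484-treated, from 10.9% to 68.6% among anti-PD-1-treated and from 8.67% to 71.9% among vehicle tumours. The means were 32.1 ± 17.1%, 31.6 ± 17.9% and 27.2 ± 15.9% (SD, n = 15, 15 and 14). AC484 differed from vehicle by 4.90 points, from anti-PD-1 by 0.488, and anti-PD-1 from vehicle by 4.41. The spread within every group was far wider than these differences. Presence in these tumours chose the members, so their share of reads is a description with no test as well.

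**Figure D5:**
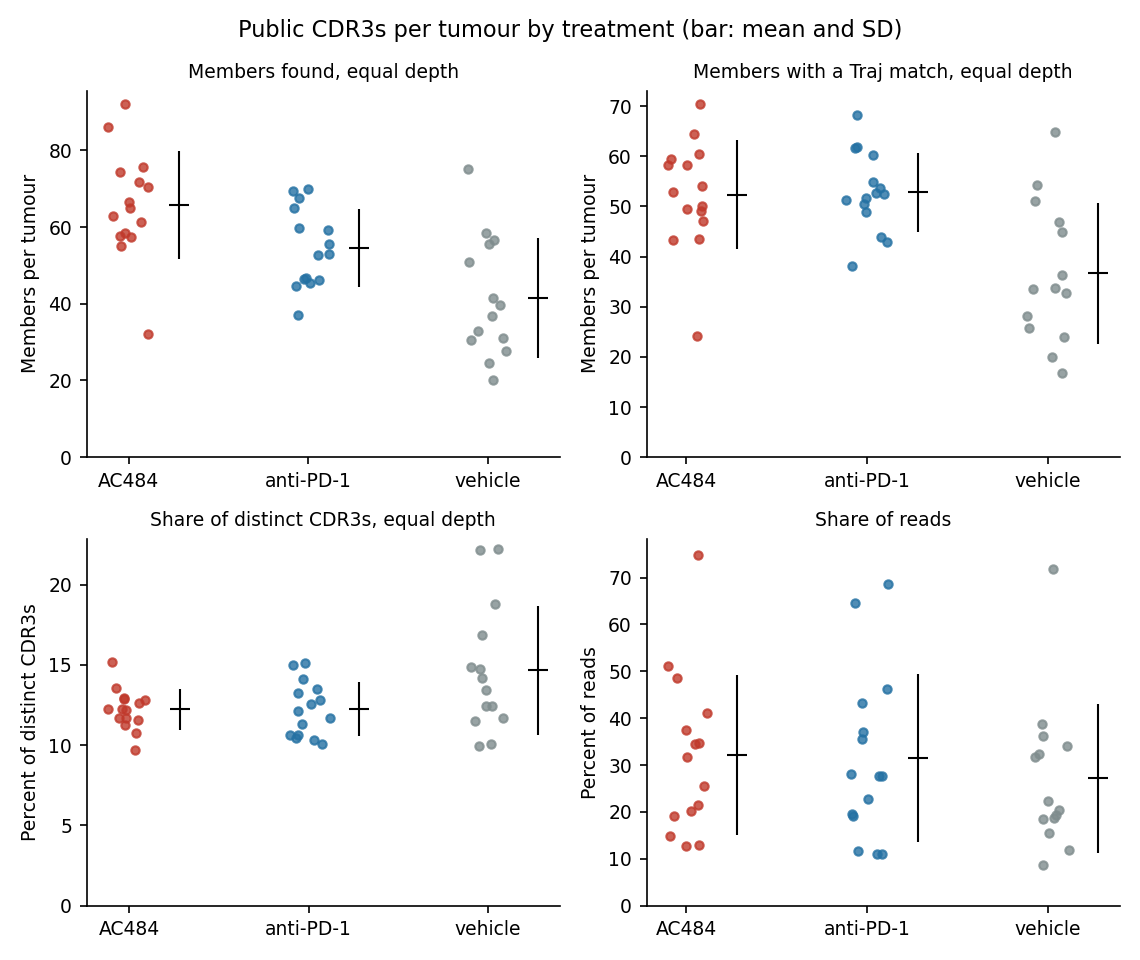
Per tumour, by treatment: members found at equal depth (upper left, whole rule, 2710 reads; upper right, Traj matches alone, 1466 reads), members as a percent of distinct α CDR3s at equal depth (lower left) and of α reads (lower right). Points are tumours and bars are means with SD (n = 15 AC484, 15 anti-PD-1, 14 vehicle); the AC484 mean is 65.8 members in the upper left panel, against 41.6 for vehicle.

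Single members were then compared by the number of tumours that held them, over 713 CDR3s of both chains found in 10 or more tumours (Fisher's exact test, Benjamini-Hochberg adjusted over all 713). The test runs on the presence that chose the members, so its counts are a description and are read only against the share of all 713. For AC484 over vehicle 162 of 439 members were called as found in more tumours and 1 in fewer, where 34.5% and 1.12% of all 713 were called. For anti-PD-1 over vehicle there were 5 and 0, where 1.54% and 0.421% of all were called. For AC484 over anti-PD-1 there were 0 in each direction (0% of all called), with 33 and 1 members at an unadjusted p under 0.05, against 6.31% and 2.66% of all. Of the 274 public β CDR3s, 84 were called for AC484 over vehicle.

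On read counts, edgeR's quasi-likelihood test called 217 members higher and 8 lower for AC484 over vehicle, where 45.7% and 5.33% of all 713 were called. For anti-PD-1 over vehicle it called 123 and 13 (34.4% and 4.35% of all), and for AC484 over anti-PD-1 55 and 12 (11.4% and 9.26% of all). Presence in these same tumours chose all 713, so these counts and those at equal depth are a description as well. After each tumour was drawn to equal depth, 703 CDR3s of both chains remained and Fisher's exact test called 0 members higher and 1 lower for AC484 over vehicle (0.142% and 0.284% of all called) and 0 in each direction in the other comparisons (0% of all). At an unadjusted p under 0.05 it then gave 15 higher and 4 lower members for AC484 over vehicle (4.55% and 1.56% of all), 1 and 5 for anti-PD-1 over vehicle (1.71% and 1.56%), and 4 and 1 for AC484 over anti-PD-1 (1.42% and 0.284%).

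The members with the lowest Fisher p for AC484 over vehicle were caasmDSNYQLIW, in 13 of 15 AC484-treated and 0 of 14 vehicle tumours, caaSSGSWQLIF, in 15 and 2, calsaSSGSWQLIF, in 14 and 1, and calgmNYNQGKLIF and calsgTGGNNKLTF, each in 12 and 0. Both of the last were found in 4 anti-PD-1-treated tumours, so they met the rule through the AC484-treated tumours and their pattern is a description, as is that of the others. Their reads were few: caasmDSNYQLIW had 131 reads in AC484-treated tumours, 160 in anti-PD-1-treated tumours and 0 in vehicle tumours, or 0.00851% and 0.0165% of α reads and a vehicle share of up to 0.00179%, the limit that a count of 0 allows over the group. The 5 called for anti-PD-1 over vehicle were caasGTGGYKVVF, in 13 and 2 tumours, caaSSNTNKVVF, in 11 and 1, caaSSGSWQLIF, in 12 and 2, caaeDTNAYKVIF, in 9 and 0, and caasmDSNYQLIW, in 9 and 0. Reads carry no molecular identifiers, so such limits cover counting error only.

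The member found in fewer AC484-treated tumours was calseDSNYQLIW, a Traj33 joint with 0 non-germline residues. It was found in 2 of 15 AC484-treated, 4 of 15 anti-PD-1-treated and 12 of 14 vehicle tumours, with 3, 96 and 11107 reads. Vehicle replicate 1 alone held 10584 of its 11206 reads. Of the 12 tumours of the primer set of that library, all vehicle, 11 held it. Whether its traces in the other vehicle tumours came from that library was not tested, and without counts under 1% of its highest count it was no longer called.

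The members were spread over the primer sets. Of 439, 312 were found in all 4 sets, 126 in 3 and 1 in 2. Set 1, with 12 vehicle tumours, held 319 of them, set 2, with 10 anti-PD-1 and 2 vehicle tumours, 436, set 3, with 7 AC484 and 5 anti-PD-1 tumours, 438, and set 4, with 8 AC484 tumours, 435. The 120 members absent from set 1 were absent from libraries of 2710 to 31435 α reads, against 8358 to 349702 in the other 3 sets. The single member in 2 sets was a Traj7 CDR3 that began with CAVRD, with 3421 of its 3520 reads in vehicle replicate 14.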

How the data were processed

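RNA from 44 B16 tumours was taken through a SMARTer Mouse TCR a/b kit by the authors and assembled with MiXCR into amino acid clonotypes, and the submitters' notes name the mm10 build, which is GRCm38. The authors deposited 1 table of read counts for each CDR3 in each tumour, which holds no V gene, chain or nucleotide sequence and no scaling for depth. The clone fractions beside them were not used.

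Chain and J gene were assigned here from the germline J ending with the longest match, 4 residues or more (GRCm38, GENCODE M21), and non-germline residues as described in the report. Sequence measures were tested per tumour by sign flips (100000 resamples) and treatments by permuting labels (exact where a group held under 10 tumours), at equal depth by 100 draws, with Benjamini-Hochberg adjustment within each family and a threshold of 0.05. Presence was tested by Fisher's exact test, with edgeR (TMM or DESeq2 size factors) as an alternative. All tests were tried on simulated data. Replicate numbers did not pair tumours, and nothing says more than that libraries came from separate tumours.

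Members and lists were chosen with earlier results of these data known. Named CDR3s are the 10 in most tumours, the 5 with most reads, at most 5 per presence comparison and the invariant chains. Named J genes are the 5, and named residues the 3, with the largest difference each way. Other CDR3s named were chosen after their values were seen. Count models ran in edgeR 4.0.16 and DESeq2 1.42.0 under R 4.3.3, and all else in SciPy 1.17.1, pandas 2.3.3 and NumPy 2.4.6 under Python 3.11.15, with plots from matplotlib 3.10.9.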

Additional observations from a re-analysis of the deposited data

Results flagged for a closer look

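Among the 7 AC484-treated tumours of primer set 3, AC484 replicate 4 stood apart from the others in the share of α reads in public CDR3s, at 74.9%. A Traj17 CDR3 that began with CALSE made up 41.2% of its α reads and caakDYSNNRLTL, with the Traj7 ending in capitals, 26.8%. Chance sets a sample apart by this measure in about 1 of 20 groups.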

How the results depend on the processing

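The shorter length, the fewer non-germline residues and the named J genes and residues kept their direction under the 6 settings run on them, and 1 named feature lost its call when tumours were drawn to equal depth. The member count was 153 at 15 or more tumours and 274 without single reads. The number of J genes higher in members was 9 with Traj matches alone and 7 against CDR3s of 2 to 9 tumours, and that of residues was 2 in the equal draw.

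For AC484 minus anti-PD-1 the share of reads turned to -3.57 points with Traj matches alone, -3.01 at 15 or more tumours, -2.07 without single reads, -2.50 without low counts (under 1% of a CDR3's highest) and -11.8 within primer set 3. The share of distinct CDR3s turned to 0.0649 without single reads and was -1.88 within set 3. Members found turned to -0.51 with Traj matches alone, where the draw depth changed too. The within-set comparisons were added after the data were seen. Against vehicle, the share of distinct CDR3s was -2.81 for AC484 and -2.41 for anti-PD-1 at 15 or more tumours, and -2.02 for anti-PD-1 without single reads. Members found differed between anti-PD-1 and vehicle by 16.2 with Traj matches alone, 5.88 at 15 or more tumours, 14.9 without single reads and 12.4 without low counts. Undrawn, the share of distinct CDR3s was -6.00 for AC484 minus vehicle, -2.24 for AC484 minus anti-PD-1 and -3.76 for anti-PD-1 minus vehicle, and members found differed by 65.7 for AC484 minus anti-PD-1 and 88.2 for anti-PD-1 minus vehicle. Counts of members and their shares of distinct CDR3s and of reads rest on the presence that chose them, so these values carry no test. The causes were not tested.

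With a tumour left out, members found ran from 22.3 to 26.8 for AC484 minus vehicle, 9.32 to 13.6 for AC484 minus anti-PD-1 and 11.4 to 15.6 for anti-PD-1 minus vehicle. The share of distinct CDR3s ran from -2.81 to -1.86, -0.222 to 0.192 and -2.80 to -1.85. Their adjusted permutation p, not read as a test here, crossed 0.05 in 0, 7 and 11 of 44 runs for members found, and in 5 and 4 for the share of distinct CDR3s in AC484-treated and anti-PD-1-treated tumours against vehicle. The share of reads ran from 1.84 to 8.34, -2.57 to 3.13 and 1.76 to 7.85. Its adjusted permutation p, likewise not read as a test, was never under 0.05 (lowest 0.203).

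With replicate number as a block, members found differed by 13.0 between anti-PD-1 and vehicle, and edgeR gave 166 higher and 2 lower members for AC484 over vehicle, where 35.8% and 1.82% of all 713 CDR3s were called. It then gave 0 in both directions for anti-PD-1 over vehicle and for AC484 over anti-PD-1 (0% of all), with 69 and 1, and 63 and 3, at an unadjusted p under 0.05. The share of all 713 at that unadjusted threshold was not taken, so those numbers cannot be read as particular to members. In the presence test 0 members were lower for AC484 over vehicle and 0 higher for anti-PD-1 over vehicle without low counts, and 0 were higher in either comparison with vehicle at equal depth. edgeR with TMM gave 8 lower members for AC484 over vehicle, where 5.33% of all 713 were called. For AC484 over anti-PD-1 it gave 55 higher and 12 lower (11.4% and 9.26% of all). For anti-PD-1 over vehicle it gave 123 higher and 13 lower (34.4% and 4.35% of all). With DESeq2 size factors the numbers in this order were 7, 46 and 10, and 134 and 11. The numbers called among all 713 were then 34, 70 and 63, and 259 and 28. All of these counts run on CDR3s chosen by presence and are a description. Leaving out tumours under 1000 α reads was not run, since every tumour had more. Vehicle depth limits how rare a CDR3 could be seen.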
